A study of Mus musculus with 82 samples.

Results

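Imprinted genes are expressed mainly from the copy inherited from one parent, under DNA methylation marks set in the germline. Igf2, Dlk1, Peg3, Cdkn1c, Snrpn and Tssc4 are 6 such genes and were followed here in adult mouse liver. Members were the probes that the platform annotation names with these symbols, which gave 6 probes, 1 for each gene, of 21936 probes on each array. Many imprinted genes act on fetal growth, and in mouse liver Igf2 and Dlk1 are known for fetal expression that is shut down after birth. The arrays measured the summed RNA of both parental copies, so which copy was expressed was not measured.

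Liver RNA of BXD strains, recombinant inbred mice bred from C57BL6/J (B6) and DBA2/J (D2), was hybridised on 72 two-colour arrays, 40 with female and 32 with male liver, against an embryo mix. That mix is labelled E17.5mix and came, per the series text, from B6 embryos of day 17.5. The series text gives an age of 10 to 20 weeks, with 3 unfasted males for each of 18 BXD strains, whereas the labels hold 17 strains and both sexes. A further 2 arrays set B6 male liver against the mix, 6 set B6 liver directly against D2 liver (3 female, 3 male), and 2 did so with RNA labelled as enriched (1 female, 1 male). No treatment is given for any group. Neither the make-up of the mix nor whether an RNA was a pool of mice is given, and liver and mix differ in both tissue and age.

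Values are log2 ratios of liver over mix, or of B6 over D2, so a ratio of 0 means equal signal and positive values mean more in liver, or in B6. They are not levels, and no gene's level was set against another's. On forward arrays liver (or B6) is named first and on swapped arrays second. In 13 strains both orientations were present in both sexes, while BXD8, BXD9, BXD14 and BXD27 had forward arrays only. The 32 forward and swapped pairs correlated at 0.556 to 0.895 over all probes once turned the same way. On 74 of 74 arrays against the mix the median of 10 measured hepatocyte genes lay above that of 8 measured embryonic and fetal genes, which is the basis for the direction given to the ratios, a likely one since both channels are labelled with the same dye. The sex labels were followed by Eif2s3x and Ddx3x, both X-linked, which were higher in females in 17 of 17 strains. The Y-linked Eif2s3y was lower in females in 15 strains and Uty in 14, and in BXD27 both were higher in the female value (0.10 and 0.38).

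Promoter sequence is shown for the 5 genes with an entry in the RefSeq promoter table (GRCm38.p6). Whether these windows hold the methylation marks that set the imprint was not examined. Each window holds the 250 bases before an annotated start, on the strand of the gene. For Igf2 the most downstream of 4 annotated starts is shown and for Snrpn the start it shares with Snurf. Snurf and Snrpn are annotated at the same locus, and the probe's own sequence was not used here, so their signals cannot be told apart. Capitals mark matches on either strand to GGGCGG, known as the GC box, to TATAAA, known as the TATA box, to CCAAT, the box of that name, and to TGACGT, the core of the cyclic AMP response element, and no matches of different motifs overlapped.
Dlk1, chr12:109452573-109452822, plus strand: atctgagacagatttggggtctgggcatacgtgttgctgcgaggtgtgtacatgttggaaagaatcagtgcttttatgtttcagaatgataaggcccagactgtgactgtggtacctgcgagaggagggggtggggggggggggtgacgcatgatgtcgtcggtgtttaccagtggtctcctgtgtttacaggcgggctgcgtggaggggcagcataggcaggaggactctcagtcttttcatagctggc
Igf2, chr7:142657497-142657746, minus strand: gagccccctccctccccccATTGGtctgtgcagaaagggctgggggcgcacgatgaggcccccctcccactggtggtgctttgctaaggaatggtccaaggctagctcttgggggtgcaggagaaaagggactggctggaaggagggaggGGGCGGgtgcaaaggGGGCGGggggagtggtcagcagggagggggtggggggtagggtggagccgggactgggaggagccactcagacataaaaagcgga
Peg3, chr7:6730420-6730669, minus strand: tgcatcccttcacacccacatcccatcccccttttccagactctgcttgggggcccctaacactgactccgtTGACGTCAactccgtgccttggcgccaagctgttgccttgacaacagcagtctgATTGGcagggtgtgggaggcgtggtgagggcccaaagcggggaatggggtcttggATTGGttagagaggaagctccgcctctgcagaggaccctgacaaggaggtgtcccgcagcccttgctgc
Snrpn, chr7:60005200-60005449, minus strand: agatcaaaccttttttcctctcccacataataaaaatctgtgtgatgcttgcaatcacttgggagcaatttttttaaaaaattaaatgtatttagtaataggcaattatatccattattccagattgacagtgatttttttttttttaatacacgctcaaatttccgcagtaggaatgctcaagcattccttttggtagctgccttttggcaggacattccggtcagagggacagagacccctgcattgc
Tssc4, chr7:143069118-143069367, plus strand: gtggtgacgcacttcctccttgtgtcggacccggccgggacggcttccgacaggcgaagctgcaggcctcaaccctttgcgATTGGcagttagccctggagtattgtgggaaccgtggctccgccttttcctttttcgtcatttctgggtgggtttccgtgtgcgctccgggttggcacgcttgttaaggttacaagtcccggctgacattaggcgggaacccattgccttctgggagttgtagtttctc

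The number of CpG pairs was 8 in the Dlk1 window, 6 in that of Igf2, 8 in that of Peg3, 3 in that of Snrpn and 17 in that of Tssc4, against a median of 6 over all promoters in the table. Windows at the other annotated starts, not shown, held 1, 10 and 22 pairs for Igf2 and 2, 3 and 4 for Snrpn. The Peg3 window held 2 CCAAT matches and 1 capitalised stretch that reads TGACGT on both strands, 2 overlapping matches, the Igf2 window 2 GC boxes and 1 CCAAT match, and the Tssc4 window 1 CCAAT match. Neither the Dlk1 nor the Snrpn window held any of the 4 motifs. Among 32851 promoters of the same length, 32.7% held a GC box, 12.4% a TATA box, 33.8% a CCAAT match and 6.47% the TGACGT core. These matches describe the letters of the windows, and no binding or methylation was measured.

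Adult liver held far less RNA of 4 of the 6 genes than the embryo mix. Dlk1, a transmembrane protein with EGF repeats that resembles Notch ligands, was lowest at 24.6-fold below the mix, followed by Cdkn1c, an inhibitor of cyclin-dependent kinases, at 12.1-fold. Igf2, the fetal growth factor, was 9.46-fold lower, and Peg3, a zinc finger protein, 7.51-fold lower. Snrpn, which encodes the SmN protein of spliceosomal particles, was 1.83-fold lower. Tssc4, a gene of the imprinted cluster on distal chromosome 7 whose protein in human cells takes part in assembly of a spliceosomal particle, was 1.14-fold lower over both sexes, with male values at -0.34 (limma adjusted p = 5.83e-05) and female values at -0.027 (limma adjusted p = 0.729). In bulk tissue fewer cells of a type and less RNA per cell cannot be told apart.

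The strain means of Dlk1 over the 13 strains with both orientations were -4.99 at the lowest (BXD15), -4.53 at the median and -4.32 at the highest (BXD18). Those of Cdkn1c were -4.01 (BXD12), -3.58 and -3.35 (BXD16). Every strain of both genes therefore lay more than 3 log2 units below the mix. Igf2 had strain means of -3.41 (BXD32), -3.29 and -2.61 (BXD11). Peg3 had -3.21 (BXD12), -2.94 and -2.34 (BXD28). The highest strain stood apart from the rest for both of these genes, and in each case 1 male forward array set it. For Igf2 the forward array of BXD11 males read -0.96 where the swapped one read -3.13. For Peg3 the forward array of BXD28 males read 0.10 where the swapped one read -2.75. With these 2 arrays left out, a choice made after seeing the data, the means over strains were -3.28 for Igf2 and -2.95 for Peg3.

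Snrpn strain means were -1.20 at the lowest (BXD21), -0.93 at the median and -0.19 at the highest (BXD15), below the mix in 13 of 13 strains. Tssc4 strain means were -0.53 (BXD6), -0.22 and 0.23 (BXD19), below the mix in 10 of 13 strains. Tssc4 thus lay on both sides of the mix, while the other 5 genes lay below it in every one of these strains. Over single BXD arrays, the count below the mix was 72 of 72 for Dlk1, Cdkn1c and Igf2, 71 for Peg3 and Snrpn, and 50 for Tssc4.

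The mean over strains was -4.62 ± 0.239 for Dlk1 (SD, n = 13 strains; limma adjusted p = 9.93e-19) and -3.59 ± 0.176 for Cdkn1c (limma adjusted p = 7.32e-19). It was -3.24 ± 0.204 for Igf2 (limma adjusted p = 1.41e-17) and -2.91 ± 0.216 for Peg3 (limma adjusted p = 1.08e-16). Snrpn, at -0.87 ± 0.296 (limma adjusted p = 1.98e-08), and Tssc4, at -0.18 ± 0.238 (limma adjusted p = 0.0112), passed the p threshold but not the required size of 1 log2 unit. So 4 of 6 genes were called lower, against 9.17% of all 21915 features, and none higher, against 4.69%. The median ratio of the 6 genes was -3.08, beside 0.0709 for all features. The mix is 1 common RNA, so its own spread is outside this test. Since the base of the deposited values is not stated, every fold rests on reading them as log10. Read as log2, they would put Dlk1 at -1.39 (2.62-fold lower) and Cdkn1c at -1.08 (2.12-fold), still called, and Igf2 at -0.98 (1.97-fold) and Peg3 at -0.88 (1.84-fold), under the size threshold.

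**Figure D1:**
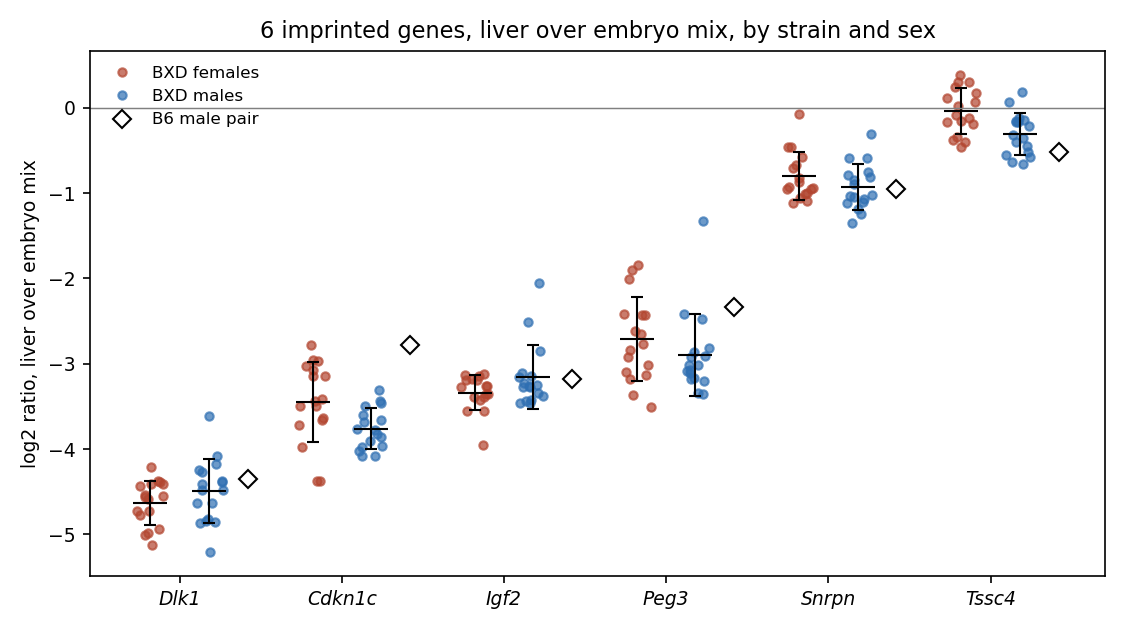
Log2 ratio of liver over embryo mix (vertical axis) for each gene, with 1 point for each of 17 BXD strains in females (left) and males (right), mean and SD as bars, and the B6 male pair as an open diamond. Dlk1, Cdkn1c, Igf2 and Peg3 lie well below 0, Snrpn lies just below it, and Tssc4 spreads around it.

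The same gap held in both sexes for the 4 strongly lower genes. Dlk1 ran over single arrays from -5.37 to -4.13 (median -4.65) in females and from -5.46 to -3.62 (median -4.51) in males. Cdkn1c ran from -5.16 to -2.16 (median -3.47) in females and from -4.51 to -2.71 (median -3.74) in males. The orientation of the array moved Cdkn1c most, with forward minus swapped at -0.50 on average over 32 pairs (SD of the difference 0.727). The other 5 genes had mean differences of -0.18 to 0.13. The strongly lower genes had low correlations between the 2 arrays of a pair (0.0596 for Peg3, 0.101 for Igf2, 0.120 for Cdkn1c and 0.511 for Dlk1), and Snrpn and Tssc4 had high ones (0.803 and 0.886). These are descriptions over 32 pairs of the same RNAs.

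Among 65 other genes listed as imprinted, 23 were measured, of which 7 were called lower in liver and 2 higher. Their median was -0.24, beside 0.0709 for all features. The 5 largest falls were of Nnat (-2.85), a membrane proteolipid of brain and endocrine tissue, Ndn (-2.49), a MAGE family protein from the Snrpn region, the zinc finger gene Plagl1 (-1.94), the sarcoglycan Sgce (-1.54) and Peg12 (-1.18). Higher in liver were Slc22a18 (1.77), a transporter of the same distal chromosome 7 cluster as Cdkn1c, and Pon3 (1.66), a lactonase made by hepatocytes. Genes listed as imprinted thus moved both ways between liver and mix, and whether each is imprinted in liver was not measured. The 4 called members are the lowest on the axis of the plot of measured imprinted genes.

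**Figure D2:**
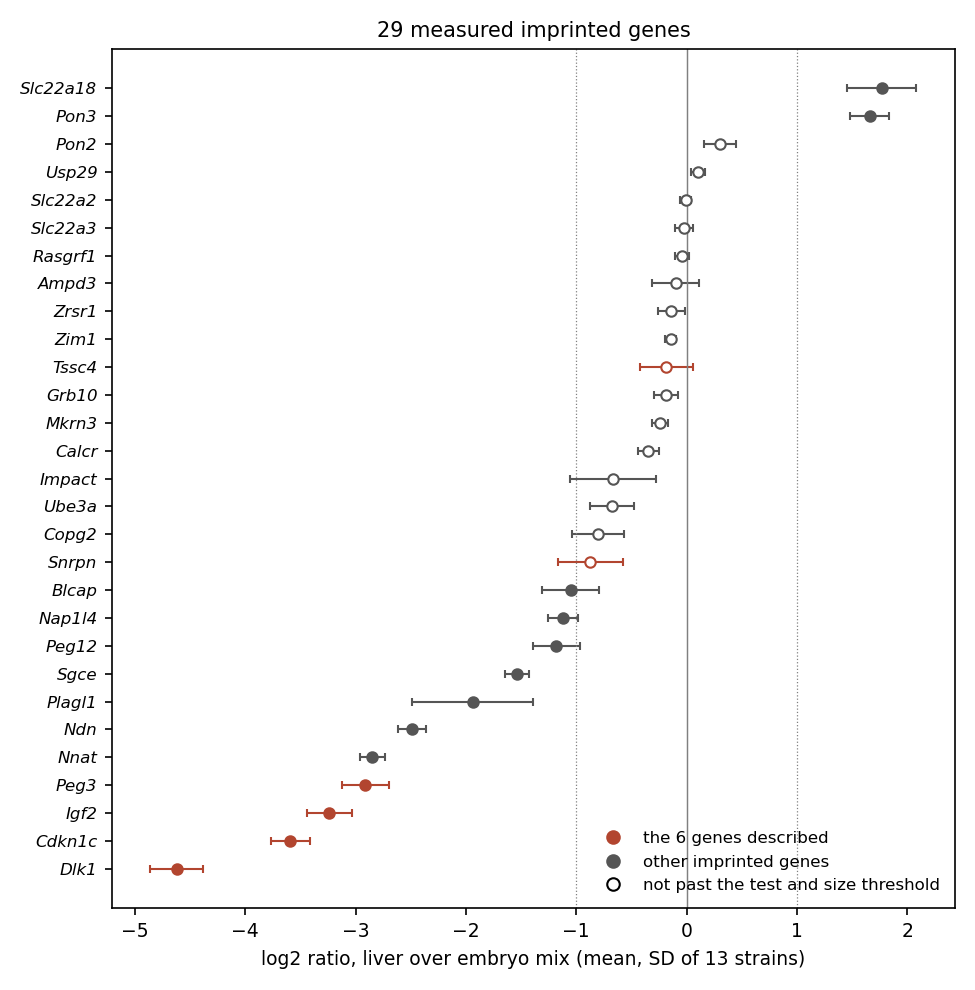
Log2 ratio of liver over embryo mix (horizontal axis, mean and SD of 13 strains) for the 6 genes described and the 23 other measured imprinted genes, sorted from high at the top to low at the bottom. Filled points passed both the test and the size of 1 log2 unit, marked by dotted lines, and Dlk1, Cdkn1c, Igf2 and Peg3 lie at the bottom.

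Of 24 listed neighbours on distal chromosome 7, where Igf2, Cdkn1c and Tssc4 lie, 7 were measured. Slc22a18 was called higher, Tnnt3 (-3.81), a fast muscle troponin, and Nap1l4 (-1.12), a histone chaperone, were called lower, and the other 4 did not pass. Of 20 genes of the insulin-like growth factor axis, through which the Igf2 protein signals, 7 were measured and 1 was called. This was the growth hormone receptor Ghr, higher at 1.43. Igfbp1, a binding protein, read 0.64 ± 1.09 and was not called. Of 22 cyclins, cyclin-dependent kinases and inhibitors, the class on which Cdkn1c acts, 8 were measured and 3 were called lower: the cyclin Ccnd3 (-2.03) and the kinases Cdk1 (-1.75) and Cdk2 (-1.66). None of 7 measured Notch pathway genes (of 16) was called in either direction. Of 5 measured spliceosomal genes (of 21), 1 was called lower, the core particle gene Snrpd1 (-1.54).

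Some markers of muscle and brain, of embryonic tissue and of fibroblasts were also lower in liver than in the mix. Muscle and brain markers were called lower for 3 of 4 measured (Tnnc2 -5.13, Tnnt3 -3.81 and Mbp -1.85), stellate cell and fibroblast markers for 4 of 7 (Postn -5.46, Col1a2 -1.69, Lum -1.66 and Acta2 -1.06) and embryonic and fetal genes for 3 of 8 (Gpc3 -3.32, Mdk -2.24 and Dpysl3 -1.55). In the same list as Postn, Lrat, the retinol-storing enzyme of liver stellate cells, read 0.82 (limma adjusted p = 6.7e-09), under the size threshold and on the other side of the mix. Among the markers not called, Snap25 of the brain read -0.08 and the embryonic gene Hmga2 0.0059. The embryonic and fetal list had a median of -0.62. Hepatocyte genes were called higher for 9 of 10, with a median of 3.71. These 2 lists were the basis for the direction given to the ratios, so their sides of the mix are not a separate result. Over all features 4.69% were called higher and 9.17% lower. No endothelial marker of 5 passed, and 1 macrophage or lymphocyte marker of 8 did (Cd4, 1.10). The part of these tissues in the ratios of the 6 genes was not tested.

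The BXD strains differed from one another in Snrpn and in Tssc4. Snrpn spanned 2.01-fold over strain means, with BXD15 at the top, and Tssc4 spanned 1.69-fold. For both genes the order of strains was much alike in females and in males, although Tssc4 differed between the sexes of a strain by up to 0.53 (BXD32). The 4 genes far below the mix did not pass this test.

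Snrpn was -0.076 in BXD15 females and -0.30 in BXD15 males, above every other value of the 13 strains. The next strain, BXD12, had -0.46 in females and -0.59 in males. At the other end BXD21 had -1.05 in females and -1.35 in males, and BXD16 had -1.09 and -1.25. The gap below BXD15 was 0.335, the largest between neighbours in the order of Snrpn means, beside a median gap of 0.0535. From BXD21 (-1.20) through BXD16 (-1.17), BXD18 (-1.11), BXD19 (-1.10), BXD6 (-1.04) and BXD5 (-1.04), neighbouring strains differed by less than the residual SD of 0.0963.

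Tssc4 was 0.39 in BXD19 females and 0.064 in BXD19 males, the highest of the 13 strain pairs. It was -0.40 in BXD6 females and -0.66 in BXD6 males, the lowest. BXD21 (-0.51) and BXD5 (-0.45) came next to BXD6 from below, and BXD18 (0.088) and BXD16 (0.043) next to BXD19 from above. The order had no single break, with a largest gap of 0.149 and a median gap of 0.0483. The strains were ordered differently for the 2 genes: over 26 values, with each sex centred on its mean, Snrpn and Tssc4 correlated at 0.00218. BXD21 was low for both, and BXD19 was low for Snrpn and high for Tssc4.

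By a moderated F test over 13 strains with sex as a term (limma), Snrpn had F = 13.9 (adjusted p = 0.0029) and Tssc4 F = 12.2 (adjusted p = 0.00458). They stood at rank 37 and rank 54 of 21915 features by p. The SD between strain means was 0.296 for Snrpn and 0.238 for Tssc4, and the residual SD 0.0963 and 0.0714. Dlk1 had F = 2.04 (adjusted p = 0.438), Igf2 0.892 (adjusted p = 0.769), Cdkn1c 0.48 (adjusted p = 0.942) and Peg3 0.383 (adjusted p = 0.971). So 2 of 6 genes were called, against 1.2% of all features. That background depends on the strains used: with the 4 forward-only strains added it was 25.5%, with Snrpn (F = 9.21, limma adjusted p = 0.000434) and Tssc4 (F = 4.86, limma adjusted p = 0.00783) again the 2 members called. The residual SD of the other 4 genes was 0.253 to 0.547, as large as or larger than their SD between strains, and a difference within that spread was not detectable here.

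Without BXD15, Snrpn had F = 7.46 and did not pass (adjusted p = 0.0536). BXD15 was also the highest strain for 75 of the 262 called features (28.6%), and 139 features were called without it. With forward arrays only, Tssc4 had F = 5.44 (adjusted p = 0.0988). In the 5 groups of strain and sex with replicate numbers above 1, repeats of the same strain and sex spanned at the median 0.157 for Snrpn and 0.131 for Tssc4.

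**Figure D3:**
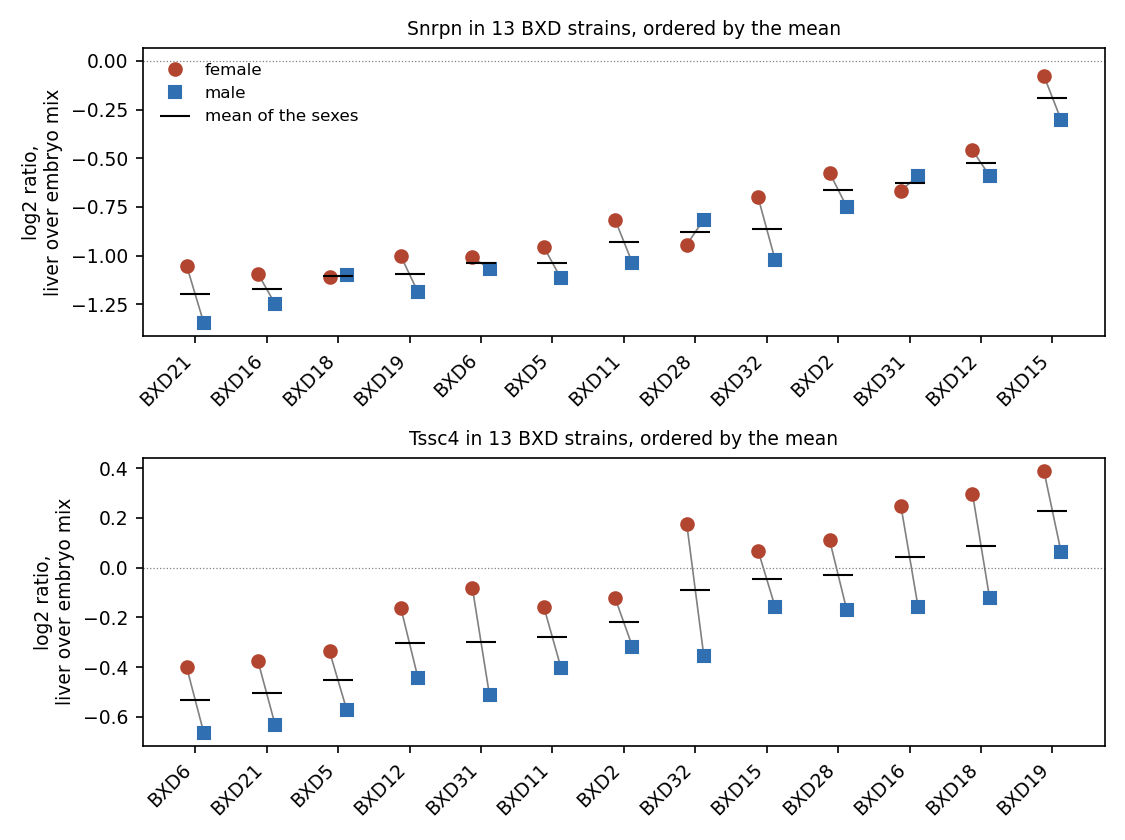
Log2 ratio of liver over embryo mix (vertical axis) for Snrpn (top) and Tssc4 (bottom) in 13 BXD strains ordered by their mean, with the female value (circle, left) joined to the male value (square, right). BXD15 stands above the other strains for Snrpn, whereas Tssc4 climbs in small steps from BXD6 to BXD19.

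Over the 13 strains the female and male values correlated at 0.927 for Tssc4 and 0.899 for Snrpn, at 0.284 for Dlk1, at -0.160 for Igf2, at -0.501 for Cdkn1c and at -0.559 for Peg3, all given as descriptions. The 4 strains with forward arrays only had Snrpn means of -0.65 (BXD14) to -0.98 (BXD27), within the range of the 13 others. Their Tssc4 means were -0.51 in BXD14 and 0.040 in BXD8 at the ends. No strain outside the 13 therefore came near BXD15 for Snrpn.

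Among other imprinted genes, 1 of 23 measured was called between strains. Impact, an inhibitor of the Gcn2 kinase pathway of translation control, ran from -1.18 in BXD18 to 0.26 in BXD32 (F = 6.83, limma adjusted p = 0.039). Of the 5 measured spliceosomal genes, Lsm4 (F = 11.1, limma adjusted p = 0.00685) and Snrpa1 (F = 6.36, limma adjusted p = 0.0494) were called. Snrpa1 was highest in BXD15 (-0.16), as were Snrpb and Snrpc, which were not called, and Lsm4 was highest in BXD28. No neighbour on distal chromosome 7 was called.

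Genes whose strain and sex pattern was most like that of a member were sought among 3435 named genes over the 26 values, each sex centred. Nearest to Snrpn were Rab33a (r = 0.670), Ccne1 (0.650) and Tpi1 (0.639), and to Tssc4 Ubl3 (0.765), Psmd4 (0.752) and Slc39a7 (0.723). Peg3 was most like Tnnt3 (0.804), Nppb (0.774) and Ppic (0.767), and Cdkn1c most like Cma1 (0.930), Cdh16 (0.901) and Sncg (0.885). Dlk1 was most like Racgap1 (0.872), Aldh18a1 (0.831) and Kifc2 (0.817), and Igf2 most like Hba-a1 (0.564), Tle1 (0.543) and Kif2a (0.537). None of these 18 genes was itself called between strains.

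Between members, only Peg3 and Cdkn1c moved together by more than 0.25, at r = 0.685. Both also moved with the spread of all features within a value, an array property, at -0.520 for Peg3 and -0.758 for Cdkn1c, so their ratios lay nearest to 0 where all ratios were compressed. For the other 4 genes that correlation was -0.205 to 0.283. The 26 values share the embryo mix, and the part of the spread in the likeness of Peg3 and Cdkn1c was not tested.

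On average over strains, females had more Tssc4 and Snrpn than males, in a comparison that called 33.7% of all features. Tssc4 was 1.20-fold higher, in 16 of 17 strains, and Snrpn 1.09-fold higher, in 12 of 17. Dlk1, Igf2, Peg3 and Cdkn1c did not pass the test. Neither Tssc4 nor Snrpn was called once the run of consecutively deposited arrays was a term, as given below.

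Tssc4 was -0.46 at the lowest, -0.082 at the median and 0.39 at the highest in females of 17 strains, against -0.66, -0.32 and 0.18 in males. The ranges overlapped because strains differed by more than the sexes did. Within a strain the female value was the higher one in 13 of 13 strains with both orientations and in 3 of 4 with forward arrays only. The exception was BXD27, at -0.37. In that strain the Y-linked genes were higher in the female value, and so were the X-linked Eif2s3x (0.78) and Ddx3x (1.72). The mean difference was 0.27 ± 0.203 (SD, n = 17 strains; SE 0.0516; limma adjusted p = 0.000701).

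Snrpn was -1.11 at the lowest, -0.92 at the median and -0.076 at the highest in females, against -1.35, -1.02 and -0.30 in males. The female value was the higher one in 10 of 13 strains with both orientations and in 2 of 4 with forward arrays only. BXD14 (0.39) and BXD32 (0.32) had the largest differences, and BXD28 had the lowest (-0.13). The mean difference was 0.12 ± 0.152 (SD, n = 17 strains; SE 0.0422; limma adjusted p = 0.0304).

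These were 2 of 6 genes called higher in females, against 16.5% of all features, and 0 of 6 called lower, against 17.2%. The 6 genes had a median difference of 0.155, beside 0.0153 for all features. Counted in either direction, 33.3% of the 6 genes were called, beside 33.7% of all features, a share near the background.

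Cdkn1c averaged -3.45 ± 0.471 in females and -3.76 ± 0.237 in males (difference 0.31, limma adjusted p = 0.112). Peg3 averaged -2.71 ± 0.496 in females and -2.90 ± 0.480 in males (0.19, limma adjusted p = 0.427). Igf2 averaged -3.34 ± 0.209 in females and -3.15 ± 0.372 in males (-0.18, limma adjusted p = 0.184). Dlk1 averaged -4.63 ± 0.260 in females and -4.49 ± 0.374 in males (-0.14, limma adjusted p = 0.303). Single strains differed by far more than these means: Peg3 by -2.04 in BXD28 and 1.34 in BXD9, Dlk1 by -1.32 in BXD27, Cdkn1c by 1.24 in BXD9 and 1.11 in BXD32, and Igf2 by -1.13 in BXD11 and -1.11 in BXD28. Without the 2 single male arrays named above, the difference was -0.12 for Igf2 (limma adjusted p = 0.315) and 0.25 for Peg3 (limma adjusted p = 0.125).

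**Figure D4:**
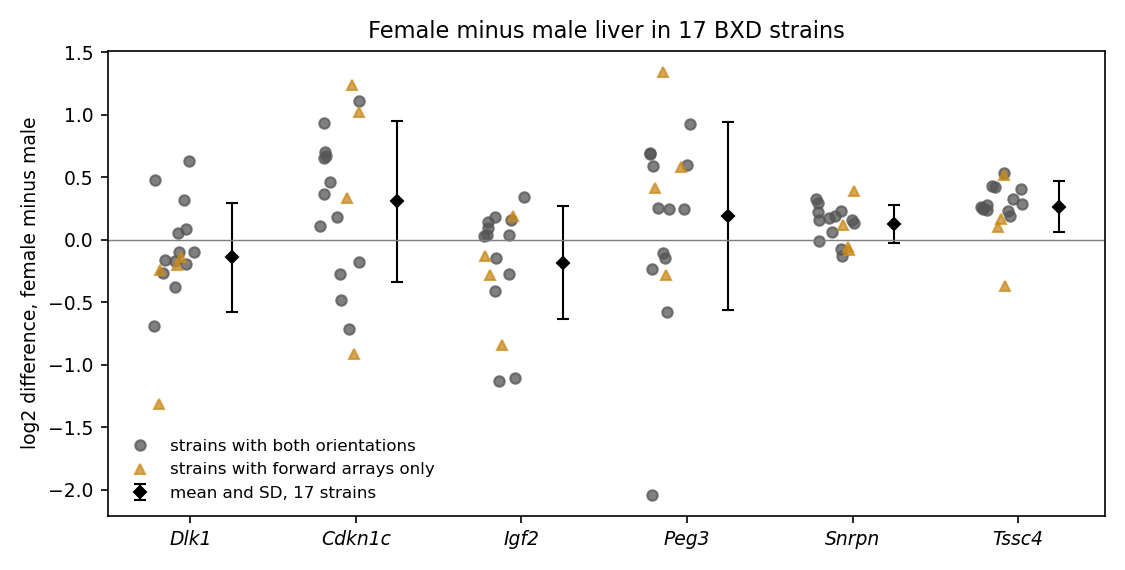
Female minus male log2 difference (vertical axis) for each gene, with 1 point for each of 17 strains (circles for strains with both orientations, triangles for forward arrays only) and the mean with SD as a diamond. Tssc4 lies above 0 in all strains but BXD27, and the 4 genes far below the mix scatter more widely around 0.

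The spread of all features was 0.846 on average in female values and 0.912 in male values. After quantile normalization, which gives every array the same spread, the Snrpn difference was 0.034 and not called (limma adjusted p = 0.692). Igf2 (-0.34, limma adjusted p = 0.0364) and Dlk1 (-0.31, limma adjusted p = 0.0142) were then called lower in females, where 30.6% of all features were called in either direction. With swapped arrays only, Snrpn read 0.049 (limma adjusted p = 0.563). In the 4 strains with forward arrays only, neither Tssc4 (0.10, limma adjusted p = 0.798) nor Snrpn (0.092, limma adjusted p = 0.764) was called. As 0 of 21915 features were called in those 4 strains, this setting cannot tell these genes from any other. Without BXD27, a choice made after seeing the data, Tssc4 was 0.30 (limma adjusted p = 3.7e-05), Snrpn 0.12 (limma adjusted p = 0.0337), and Cdkn1c was called too, at 0.38 (limma adjusted p = 0.0318). Leaving out BXD27 gave calls for 37.2% of all features.

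Arrays deposited consecutively formed runs, of which 4 held both sexes. In 3 of them no strain was present in both sexes, so sex and strain cannot be told apart there. In the fourth, which held both sexes of 4 strains and BXD31 females, female minus male was 0.103 for Snrpn, 0.148 for Tssc4 and 0.332 for Cdkn1c. The difference there was 0.502 for Peg3, -0.247 for Igf2 and -0.556 for Dlk1, with BXD31 in the female mean only. With the run as a term, Tssc4 was 0.20 (limma adjusted p = 0.0839) and Snrpn 0.12 (limma adjusted p = 0.244), neither called, and Peg3 was called at 0.71 (limma adjusted p = 0.031). That setting called 21.9% of all features. What a run stands for is not given in the labels.

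Of the 23 other measured imprinted genes, 7 were called higher in females and 1 lower, a count to be read against the 33.7% of all features called in either direction. Pon3 (0.47), the ubiquitin ligase Ube3a (0.42), Nnat (0.34), Ndn (0.18) and Nap1l4 (0.16) had the 5 largest rises, and the deubiquitinase Usp29 (-0.16), a neighbour of Peg3, fell. Of the 5 measured spliceosomal genes, 5 were called higher in females (Snrpd1 0.53, Lsm4 0.25, Snrpa1 0.20, Snrpc 0.19 and Snrpb 0.15). Of the 7 distal chromosome 7 neighbours, Mrpl23 (0.35), Lsp1 (0.18) and Nap1l4 were called higher and Syt8 (-0.24) lower. In the insulin-like growth factor axis Insr (0.26) was called higher, and Igfbp3 (-0.60) and Igf2bp1 (-0.30) lower, of 7 measured. Of the 8 cyclin and kinase genes Ccne1 (0.14) was called higher, and of the 7 Notch pathway genes Dll1 (0.22) was called higher and Rbpj (-0.59) lower. Markers of stellate cells and fibroblasts were called higher in females for 3 of 7 and those of macrophages and lymphocytes for 4 of 8. Of 5 endothelial markers Tek (0.33) was called higher and Tie1 (-0.26) and Flt4 (-0.12) lower, and of 4 muscle and brain markers Mbp (0.37) higher and Snap25 (-0.25) lower. The part of these cells in the Tssc4 and Snrpn differences was not tested.

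B6 male liver was set against the same mix on 1 forward and 1 swapped array. BXD males of the 13 strains had Cdkn1c at -4.08 to -3.31, and the B6 pair had it at -2.78 (-3.11 forward, -2.45 swapped), above 13 of 13 BXD males. For Peg3, BXD males ran from -3.36 to -1.33 (median -3.07) and the B6 pair read -2.34, above 12 of 13. Dlk1 in BXD males ran from -5.21 to -4.08, with the B6 pair at -4.35, above 10 of 13. The B6 pair had a smaller spread over all features (0.748) than any of the 13 BXD male values (0.838 to 1.0), and its part in these differences was not tested.

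For Igf2 the BXD males ran from -3.46 to -2.05 and the B6 pair read -3.18. Snrpn in BXD males ran from -1.35 to -0.30, with the B6 pair at -0.96, above 8 of 13. Tssc4 in BXD males ran from -0.66 to 0.064, with the B6 pair at -0.52, above 3 of 13. These 3 genes, like Peg3 and Dlk1, thus had B6 values inside the BXD range, and only Cdkn1c lay outside it. With 1 B6 value there is no replicate check.

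On the direct arrays Snrpn read lower in B6 liver than in D2 liver on 6 of 6 arrays, and Peg3 and Tssc4 each on 5 of 6. These counts include forward and swapped arrays of the same RNAs. None of these genes passed the test over all features. Among the members 0 of 6 were called, against 0.178% of all features (39 of 21915), with 0.0913% called higher and 0.0867% lower in B6. Forward and swapped direct arrays of the same RNAs correlated at 0.133 in females and -0.0187 in males over all probes after turning, against 0.609 and 0.627 for 2 swapped arrays of the same sex, so the values below are followed by those of single arrays in each orientation.

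Snrpn as B6 over D2 was -0.56 and -0.90 in females (replicates 1 and 2) and -0.41 and -0.38 in males. Forward arrays gave -0.49 to -0.31 and swapped arrays -0.90 to -0.38, so the direction was shared by both orientations. The 2 enriched arrays read -0.56 in females and -0.28 in males. The mean of the 4 values was -0.56 ± 0.240 (SD, n = 4), 1.48-fold lower in B6 (limma adjusted p = 0.212).

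Peg3 was -0.46 and -1.06 in females and -0.63 and -1.36 in males, with a mean of -0.88 ± 0.409 (limma adjusted p = 0.189). Here orientation mattered: the forward arrays read 0.093 in females and -0.11 in males, and the swapped ones -1.36 to -1.01. The enriched arrays, both swapped, read -0.70 in females and -1.50 in males. With 1 value per array and a dye term Peg3 was -0.58 and called (limma adjusted p = 0.0182). That setting called 1.25% of all features and counted forward and swapped arrays of the same RNAs as separate values. With the enriched arrays added as further values, Peg3 (-0.95, limma adjusted p = 0.0225) and Snrpn (-0.51, limma adjusted p = 0.0286) were both called. There 2.33% of all features were called, and the labels do not say whether the enriched RNAs came from other mice.

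Tssc4 was 0.14 and -0.033 in females and -0.30 and -0.46 in males. Its single arrays ran from -0.033 to 0.31 in females and from -0.46 to -0.22 in males. Each sex includes a forward and a swapped array of the same RNAs, so these ranges are not a test of a difference between the sexes. The enriched arrays read 0.12 in females and 0.029 in males for Tssc4, which is inside the female range. For Tssc4, female minus male in the B6 over D2 ratio was 0.44 (limma adjusted p = 0.645), and no feature was called for such a difference.

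Cdkn1c was -0.050 and -1.06 in females and -0.12 and -0.12 in males. The replicate 1 values are means of arrays of opposite sign, with -0.36 forward and 0.26 swapped in females and -0.60 forward and 0.37 swapped in males. The enriched arrays read 0.63 in females and 0.12 in males. Cdkn1c thus had no direction shared by the arrays.

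Igf2 was -0.086 and -0.38 in females and 0.040 and 0.18 in males. Its replicate 1 arrays also changed sign with orientation, at 0.20 forward and -0.37 swapped in females and 0.38 forward and -0.30 swapped in males, and the enriched arrays read 0.043 in females and -0.062 in males. Dlk1 was 0.22 and 0.20 in females and -0.017 and 0.049 in males. Its replicate 1 arrays read 0.15 forward and 0.28 swapped in females and -0.077 forward and 0.043 swapped in males, and the enriched ones -0.079 in females and -0.13 in males. Mean ratios of Tssc4, Cdkn1c, Igf2 and Dlk1 were -0.34 to 0.11, with limma adjusted p of 0.424 to 0.779, and none of the other lists' measured imprinted genes (0 of 23) was called.

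**Figure D5:**
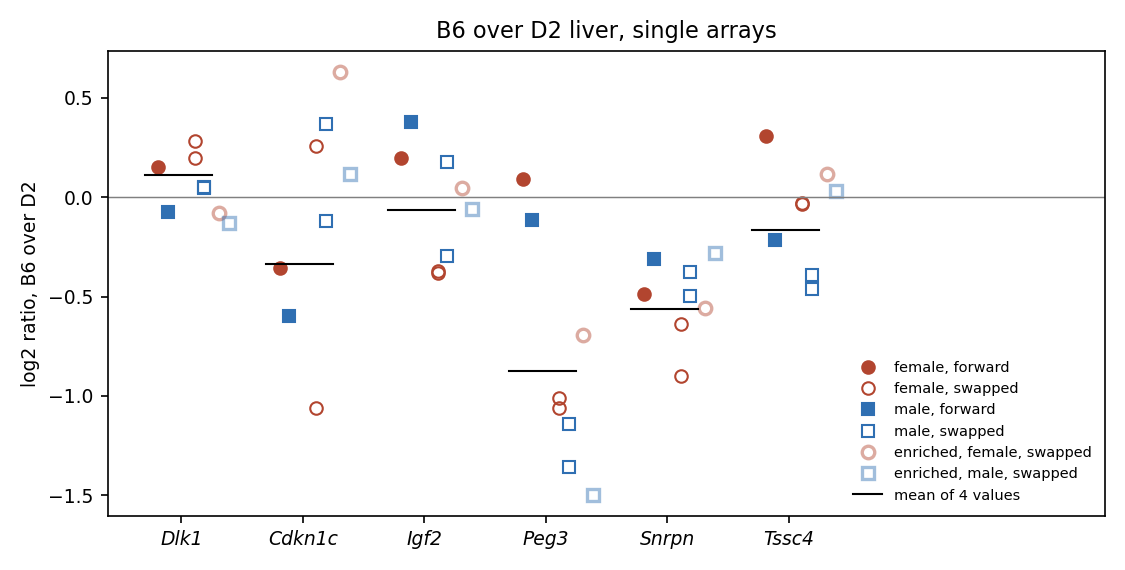
Log2 ratio of B6 over D2 liver (vertical axis) on each of 6 direct arrays and 2 enriched arrays (paler), with circles for females, squares for males, filled symbols for forward and open ones for swapped orientation, and a line at the mean of the 4 replicate values. Snrpn lies below 0 on all 8 arrays, and for Peg3 the swapped arrays lie below the forward ones.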

How the data were processed

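Each array had 1 log ratio per probe, deposited by the authors with no stated base. The deposited values were read as log10 ratios, because 94 sit exactly at a bound of 2, and were multiplied to log2. None was missing. Scanner, software and any upstream normalization are unstated in the labels, and no column was left unused (0). Forward arrays were multiplied by -1, and swapped arrays kept their deposited sign. For 1 BXD11 female array the title and the channel labels disagree on orientation, and the channel labels were used (r = 0.846 with the forward array as deposited). Probes were named for 3460 of 21936, by the platform annotation or (170) by accession through a RefSeq gene table (GRCm38.p6), and averaging probes of a symbol left 21915 features.

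Arrays were averaged within strain, sex and orientation, then across orientations. Tests used limma 3.58.1 in R 4.3.3 (Benjamini-Hochberg over the 21915 features, threshold 0.05), were tested on simulated data, and were as follows: 13 strain means against 0 (a log2 ratio of at least 1 also required), females against males with strain as a block (34 values), a moderated F over 13 strains with a sex term (26 values), and B6 against D2 (4 values, 1 per sex and replicate number). Replicate 2 of each sex had a swapped array only. No label says that replicates came from separate mice, so p-values measure the spread between these samples, which may be technical, and the number of arrays limits the precision.

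The 6 genes and all lists were chosen with earlier results of these data known. Genes of other lists were named where called, at most the 5 largest per direction and list, or where needed beside a member. The genes most like a member were the 3 with the highest Pearson r. Alternatives covered centring, quantile normalization, single probes, limma settings, orientation, sex, strain sets, replicate number, runs of deposition, a dye term and values left out.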

Additional observations from a re-analysis of the deposited data

Results flagged for a closer look

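Tssc4 and Snrpn passed the test between the sexes, in a comparison that called 33.7% of all features. Female minus male, as log2 ratios of liver over mix, was 0.27 for Tssc4 (limma adjusted p = 0.000701, higher in 16 of 17 strains) and 0.12 for Snrpn (limma adjusted p = 0.0304, higher in 12 of 17 strains). Snrpn lost the call after quantile normalization (0.034, limma adjusted p = 0.692) and with swapped arrays only (0.049, limma adjusted p = 0.563). Both lost it with the run as a term, where 21.9% of all features were called. Neither was called in the 4 strains with forward arrays only, where 0 of 21915 features were.

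Cdkn1c had 1 B6 over D2 value far from the other 3: replicate 2 of the females, a swapped array, read -1.06, and the other values were -0.12 to -0.050. Its gap to the nearest value, as a share of the range, passed Dixon's critical value. As 2 of those 3 values are means of forward and swapped arrays of opposite sign, the gap is smaller between single arrays, which ran from -1.06 to 0.37, and the enriched arrays read 0.63 and 0.12. Groups of more than 10 values, such as the BXD strains, were not examined in this way. It was the only such value among the 36 groups that were, and chance gives about 1 in 20.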

How the results depend on the processing

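Over the 6 genes and 4 comparisons, 353 of 372 values under an alternative kept their direction and side of the threshold, 10 lost a call, 7 gained one and 2 changed sign, and the calls lost or gained stand beside the results. The 2 changes of sign were Igf2 in B6 over D2, at 0.0346 with a dye term and, with 1 of the 4 values left out, between -0.14 and 0.0429 (the last without replicate 2 of the females). Features called between B6 and D2 numbered 39, but 0 with trend and robust settings (746 at an unadjusted p under 0.05), 274 with a dye term, 9 with the replicate block, 510 with the enriched arrays added and 0 to 29 with 1 of the 4 values left out (0 without replicate 1 of the males, 3016 at an unadjusted p under 0.05). Between strains, 262 features were called, 164 with forward arrays only, 101 with swapped arrays only, 139 without BXD15 (189 to 278 without another strain) and 5589 with all 17 strains. For liver over mix 3037 were called, and 205 when values were read as log2. Between sexes 7381 were called, 0 in the 4 strains with forward arrays only (3276 at an unadjusted p under 0.05) and 4789 with the run as a term; the replicate block gave 7837 and the same values without it 8096. The cause of these changes was not tested. Deviations of replicate numbers correlated at 0.325 between the sexes of B6 and D2, from 2 pairs of which replicate 2 held swapped arrays only, so the numbers do not establish a pairing. Signal over background was not analysed here, so how far dim probes limit the low ratios was not tested.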
